A study of Mus musculus with 4 samples.

Results

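Snhg1, Gas5, Snhg5, Snhg6, Snhg3, Snhg8, Dancr and Snhg12 are noncoding genes whose introns carry small nucleolar RNAs (snoRNAs). RNA-seq measured their transcripts in mouse embryonic stem cells with and without the chromatin remodeler Chd1. The members are the loci whose symbol equals one of these 8 names in both deposited tables. Each of the 8 occurred once per table, and all 8 were among the 10261 genes, of 11728 named in both tables, that had a mean of at least 1 FPKM (fragments scaled to transcript length and to library depth) over the 4 libraries. Although the rule is by name, the set was chosen by the Chd1-null over control ratios of these same libraries, which were already known. Those ratios are therefore described here without a test, and nothing rests on their direction.

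All cells had the genotype Rosa26CreER;Chd1fl/-, that is, a Cre recombinase that tamoxifen activates, a floxed Chd1 allele and a null allele. Control cells received ethanol and Chd1-/- cells (called Chd1-null below) received 1 µM tamoxifen for 48 to 72 h, and both then went through 3 to 5 passages in medium containing serum and LIF. The control cells thus hold a single working allele and are not wild type. There were 2 sets with 1 control and 1 Chd1-null library each (n = 2 per group). The protocol names 2 independently derived lines, but no label ties a set to a line, and the spread between sets may be partly technical. RNA came from equal cell numbers, with ERCC transcripts added. How these entered the scaling is not given in the sources used here, so a lower value is lower per cell only as far as the deposited scaling carries that.

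Chd1 itself was lower in both Chd1-null libraries, and far from absent. It had 27.6 FPKM with ethanol and 5.71 with tamoxifen in set 1, against 17.9 and 8.52 in set 2 (ratios 0.207 and 0.477). The fall in set 2, -1.06 on the log2 scale, was no larger than the median fall of the hosts there (-1.15). The values cover the locus as a whole and the deleted exons were not looked at, so they check the deletion only in part. Over loci, FPKM summed to between 466994 and 719549 per library, and read depth is unknown. All 10 pluripotency markers were found in every library, with Pou5f1 between 402.7 and 599.3 FPKM. Their sum was 2755 and 2014 FPKM in set 1 and 3453 and 1919 in set 2 (control, then Chd1-null), and 9 of the 10 fell in limma (adjusted p at the 0.05 limit used throughout). Trophectoderm markers, of which 5 of 7 were found and which Krt8 and Krt18 dominate, summed to 320.0 and 165.2 FPKM in set 1 and 55.8 and 35.3 in set 2, with Cdx2 at most 1.53. The part of these shifts in the values of the hosts was not tested. Markers of fibroblast feeder cells summed to between 2.65 and 8.29 FPKM over the 5 of 8 found in both tables, with Col1a1 at most 1.94, and those of primitive endoderm to between 6.14 and 17.8 over 3 of 7, nearly all of it Lama1, with Gata4 at most 0.379. Neural markers summed to between 28.5 and 49.5 FPKM (6 of 6 found), led by Tubb3 and Nes. The lowest deposited value was 0.100142 in set 1 and 0.100022 in set 2, so no marker could be listed at 0. Whether the markers not found lay below such a floor is not known. Over tested genes the median ratio was 0.727 in set 1 and 0.796 in set 2 (-0.46 and -0.33 on the log2 scale), so each host is also set against genes of similar level. In bulk libraries, fewer cells of a type and less RNA per cell cannot be told apart.

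SnoRNAs are short nuclear RNAs that guide chemical modification of ribosomal RNA. Box C/D snoRNAs direct 2′-O-methylation and box H/ACA snoRNAs direct pseudouridylation, and most are cut from the introns of a spliced host transcript. The spliced exons of many noncoding hosts reach the cytoplasm, where they are translated little and are degraded by nonsense-mediated decay, so that host exons and the snoRNA from the same intron can have very different lifetimes. Many hosts belong, with ribosomal protein genes, to the class whose transcripts begin with a terminal oligopyrimidine (TOP) tract. In proliferating cells such as embryonic stem cells, demand for ribosome production is high. The values below are of host exons; the snoRNAs themselves were not analysed here.

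The cargo of the hosts differs in kind and number. In GENCODE M21 (GRCm38), genes of the snoRNA biotype on the host's strand and inside its span numbered 8 for Snhg1, 10 for Gas5, 2 for Snhg5 and 1 for Snhg6, and those with a class name were all box C/D. Snhg3 held 2, Snhg8 held 1 and Dancr held 1, all box H/ACA. Snhg12 held 5, of which 4 were H/ACA and 1 was C/D. Only 1 of the 8 in Snhg1 and 4 of the 10 in Gas5 had a class name. A name occurred more than once in Gas5 (Snord80) and in Snhg12 (Snora16a), and RefSeq counted 8 snoRNAs in Gas5 and 4 in Snhg12. The following cargo sequences, 5′ to 3′ from GENCODE M21, show both classes. The C/D pair comes from hosts that are neighbours in the order of ratios below, and the H/ACA pair from the hosts at its ends. Capitals mark the C box letters TGATGA and the last CTGA (D box) in C/D snoRNAs, and the last ACA, which lay 3 bases from the end, in H/ACA snoRNAs.
Snord87, in Snhg6, chr1:9942463-9942549, minus strand: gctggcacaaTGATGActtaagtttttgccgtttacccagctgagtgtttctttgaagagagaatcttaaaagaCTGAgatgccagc
Snord50a, in Snhg5, chr9:88521529-88521600, minus strand: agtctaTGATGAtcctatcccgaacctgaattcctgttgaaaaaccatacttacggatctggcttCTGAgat
Snora26, in Dancr, chr5:74093530-74093650, plus strand: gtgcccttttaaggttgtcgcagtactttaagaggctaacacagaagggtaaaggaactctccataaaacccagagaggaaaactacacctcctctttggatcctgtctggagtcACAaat
Snora24, in Snhg8, chr3:123507937-123508066, minus strand: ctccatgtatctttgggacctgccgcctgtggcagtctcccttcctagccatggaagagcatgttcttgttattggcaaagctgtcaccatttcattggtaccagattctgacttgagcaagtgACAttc

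The starts of the hosts are shown next, because a feature of their sequence, picked after these promoters were read, was shared by most of them. The feature was not used to choose the hosts. Each window runs from 45 bases before the annotated start to 30 bases into the transcript, 5′ to 3′, from RefSeq on GRCm38.p6. Capitals mark the letters TATA, a core promoter element, and a C within 2 bases of the start that is followed by at least 4 C or T, with the pyrimidines that go on from it. A promoter was matched for 7 of the 8 hosts, and Snhg6 is named only.
Snhg1, chr19:8723442-8723516, plus strand: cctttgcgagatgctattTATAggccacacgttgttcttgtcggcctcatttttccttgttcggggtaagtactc
Gas5, the second of 2 starts, chr1:161035121-161035195, plus strand: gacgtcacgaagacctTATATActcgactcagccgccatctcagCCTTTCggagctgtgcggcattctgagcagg
Snhg5, chr9:88522868-88522942, minus strand: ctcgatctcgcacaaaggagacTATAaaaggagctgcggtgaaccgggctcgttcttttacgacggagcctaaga
Snhg3, chr4:132353657-132353731, minus strand: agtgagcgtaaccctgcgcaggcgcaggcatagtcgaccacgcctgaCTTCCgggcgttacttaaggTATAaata
Snhg8, chr3:123508307-123508381, minus strand: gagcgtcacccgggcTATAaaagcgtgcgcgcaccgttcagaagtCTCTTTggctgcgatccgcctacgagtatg
Dancr, chr5:74093015-74093089, plus strand: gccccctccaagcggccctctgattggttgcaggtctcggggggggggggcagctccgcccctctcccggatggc
Snhg12, chr4:132308633-132308707, plus strand: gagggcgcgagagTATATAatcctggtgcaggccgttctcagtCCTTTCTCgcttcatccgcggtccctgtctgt

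TATA between 45 and 16 bases before a start was found in 5 of the 7 hosts (Snhg1, Gas5, Snhg5, Snhg8 and Snhg12), and in 7.93% of the 27025 gene symbols of the promoter table. Among the tested genes with a promoter in the table the share was 3.82% of 7780. A narrower window, 40 to 21 bases before a start, left 4 hosts (without Snhg5) and 6.38% of all symbols. In Gas5 only the second annotated start had TATA, and in Snhg3 the letters lay 22 bases after the annotated start. The C with its pyrimidine run stood at the start of 4 of 7 hosts (Gas5, Snhg3, Snhg8 and Snhg12), against 10.6% of all symbols and 12.3% of tested genes. Both motifs were read on the transcribed strand only, they do not overlap in these windows, and a match is a description of letters. The TATA letters were picked from these same promoters, so their count in the hosts is not a test. Across the other 292 tested genes with TATA between 45 and 16 bases before a start, the medians were -0.48 and -0.35 on the log2 scale (set 1, then set 2). These were close to the -0.45 and -0.33 of the 7481 without it. For the 951 other genes with the pyrimidine start the medians were -0.47 and -0.36, against -0.45 and -0.32 for those without.

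The hosts were abundant transcripts. In control 1 they ranged from 40.3 FPKM (Dancr) to 165.2 (Snhg1) with a median of 88.6, and in control 2 from 96.6 (Snhg8) to 214.5 (Snhg3) with a median of 145.4. In Chd1-null 1 they ranged from 16.5 (Dancr) to 59.4 (Snhg1) and in Chd1-null 2 from 30.1 (Dancr) to 130.5 (Snhg3). Added up, the 8 hosts came to 732.9 FPKM in control 1 and 341.2 in Chd1-null 1, a ratio of 0.466. In set 2 they came to 1144 and 519.5, a ratio of 0.454. The summed FPKM of all loci had ratios of 0.799 and 0.720, and the hosts' share of it was 0.125% in the control and 0.0731% in the Chd1-null library of set 1, against 0.159% and 0.1003% in set 2.

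All 8 hosts were lower in the Chd1-null library of both sets, as were 72.4% of tested genes. A fall of 1.5-fold or more in both sets was seen for all 8 and for 10.8% of tested genes (5.01% of the 1438 genes with a mean at or above that of Dancr, the lowest host). A ratio of 0.5 or less was reached by 4 hosts in set 1 (Snhg1, Snhg6, Snhg3 and Dancr; 18.7% of tested genes) and by 4 in set 2 (Snhg1, Snhg6, Dancr and Snhg12; 5.86%). Snhg1, Snhg6 and Dancr (3 of 8) were thus 2-fold lower or more in both, as were 2.14% of tested genes. These shares are given beside counts from the ratios that chose the genes, and nothing is read from them. Over the hosts, log2 ratios had a median of -1.06 (set 1) and -1.15 (set 2). The range was -1.47 (Snhg1) to -0.89 (Snhg12) in set 1 and wider in set 2, at -1.88 (Snhg12) to -0.72 (Snhg3).

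**Figure D1:**
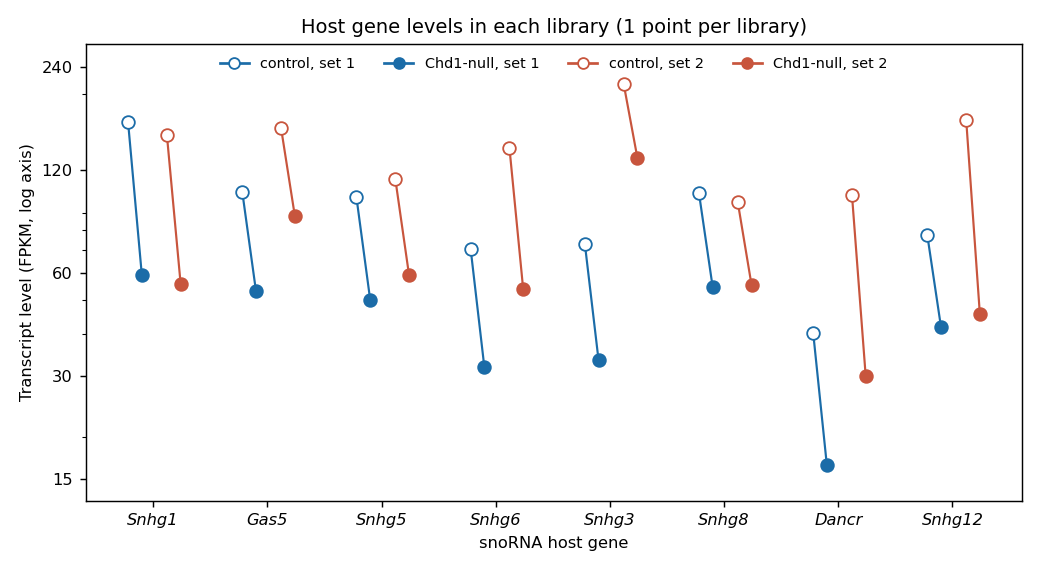
Level of each of the 8 host genes (FPKM, log axis) in each library, with open points for control, filled points for Chd1-null and a line joining the libraries of a set. Every line falls, and the steepest falls are those of Dancr and Snhg12 in set 2, to 0.297 and 0.270 of control.

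Of the hosts of box C/D snoRNAs, Snhg1 was the most alike between sets. This gene carries C/D snoRNAs in one intron after another. Set 1 gave 165.2 FPKM with ethanol and 59.4 with tamoxifen, and set 2 gave 151.5 and 55.9. Both control libraries lay well above both Chd1-null libraries, and the values of a group nearly coincided between sets. Here and below, such separation of the groups is description only. It spans separately scaled tables, and its share over all tested genes was not counted. The log2 ratios were -1.47 and -1.44 (mean -1.46 ± 0.03, SD, n = 2).

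Snhg6, which carries Snord87, had the other large fall among C/D hosts. Its level was 70.7 FPKM in the first control against 32.0 in its Chd1-null partner, while set 2 had 139.2 against 54.0. The groups did not overlap, although the controls differed 1.97-fold between the separately scaled tables. The mean log2 ratio was -1.25 ± 0.16 (SD, n = 2).

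Gas5 and Snhg5 fell by about the same share. Gas5, named for its accumulation in growth-arrested cells and known as a decoy of the glucocorticoid receptor, stood at 103.6 and 53.2 FPKM in set 1 (control, then Chd1-null) and at 158.9 and 88.3 in set 2. Its log2 ratios were -0.96 and -0.85 (mean -0.90 ± 0.08). Snhg5, the host of the U50 snoRNAs Snord50a and Snord50b, stood at 99.9 and 50.2 FPKM in set 1 and at 113.3 and 59.5 in set 2. Its log2 ratios were -0.99 and -0.93 (mean -0.96 ± 0.04), and for both genes each control lay above each Chd1-null library.

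Of the hosts of box H/ACA snoRNAs, Dancr, a transcript described as an antagonist of cell differentiation, had the lowest mean ratio of all 8. The pair of set 1 read 40.3 and 16.5 FPKM (control, then Chd1-null) and that of set 2 read 101.4 and 30.1. Dancr was also the lowest of the 8 in each library but control 2, where Snhg8 was lower. Its log2 ratios were -1.28 and -1.75 (mean -1.52 ± 0.33).

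Snhg8, the host of Snora24, had the smallest mean change and differed little between sets. Control and Chd1-null cells had 102.6 and 54.6 FPKM in the first set, 96.6 and 55.5 in the second. The log2 ratios were -0.91 and -0.80 (mean -0.85 ± 0.08), and the control libraries lay clear of the Chd1-null libraries.

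Snhg3, the host of the U17 snoRNAs Snora73a and Snora73b, which act in cleavage of the ribosomal RNA precursor, was the host whose libraries overlapped between groups. In set 1 it read 73.2 FPKM with ethanol and 33.5 with tamoxifen, whereas set 2 read 214.5 and 130.5. The Chd1-null value of set 2 thus lay above the control of set 1, and only the ratios within a set, -1.12 and -0.72 on the log2 scale, compare libraries of the same table. Their mean was -0.92 ± 0.29.

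Snhg12, with both classes of cargo, differed most between the sets. The controls had 77.3 (set 1) and 168.6 FPKM (set 2), the Chd1-null libraries 41.7 and 45.6. The Chd1-null levels were alike and the controls were not. The log2 ratios of -0.89 and -1.88 are 1.00 apart, so the mean of -1.39 ± 0.70 describes neither set. Whether the sets differ cannot be tested with 1 library per group and set.

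By mean log2 ratio the order ran from Dancr and Snhg1 through Snhg12 and Snhg6 to Snhg5, Snhg3, Gas5 and Snhg8. The 4 at the upper end lay between -0.96 and -0.85, closer together than the SD of Snhg3 alone, and Dancr (-1.52) and Snhg1 (-1.46) differed by less than the SD of Dancr. Across the 8 hosts, which are not replicates, the order of the ratios in one set was hardly that in the other (Spearman rho 0.167 over 8 genes). The order of the control levels was not shared either (rho 0.0714), and that of the Chd1-null levels was so in part (rho 0.405). The gap between the log2 ratios of the sets had a median of 0.168 over the hosts and 0.258 over the 3041 genes with a mean of at least 20 FPKM. Because the hosts were chosen with both ratios known, nothing is read from this difference. Hosts of either class of snoRNA were found at both ends of the order.

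Level matters in these tables, since the median ratio moves with it. Each host was placed among the 500 tested genes nearest in mean log2 value of the 2 libraries of its set. Around the hosts, these genes had medians between -0.31 and -0.21 on the log2 scale in set 1, and between -0.39 and -0.36 in set 2. In set 1, between 0.4% (Snhg1) and 3.2% (Snhg12) of similar genes had a lower ratio than the host. In set 2 the share was 0% for Dancr and Snhg12, 0.4% for Snhg1, 0.8% for Snhg6, 2.8% for Snhg5, 6.4% for Snhg8, 6.8% for Gas5 and 11% for Snhg3. All 8 hosts were below the median of similar genes in both sets, as were 26.6% of tested genes. The lowest 10% of similar genes held 8 hosts in set 1 and 7 in set 2 (10.3% of tested genes in each), and all but Snhg3 lay there in both sets (7 of 8), where 1.58% of tested genes lay. These placements use the ratios that chose the hosts, so the shares are given for scale and nothing is read from them. The distance from the median of similar genes ran from -1.26 (Snhg1) to -0.66 (Snhg12) in set 1, and in set 2 from -1.502 (Snhg12) to -0.35 (Snhg3).

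**Figure D2:**
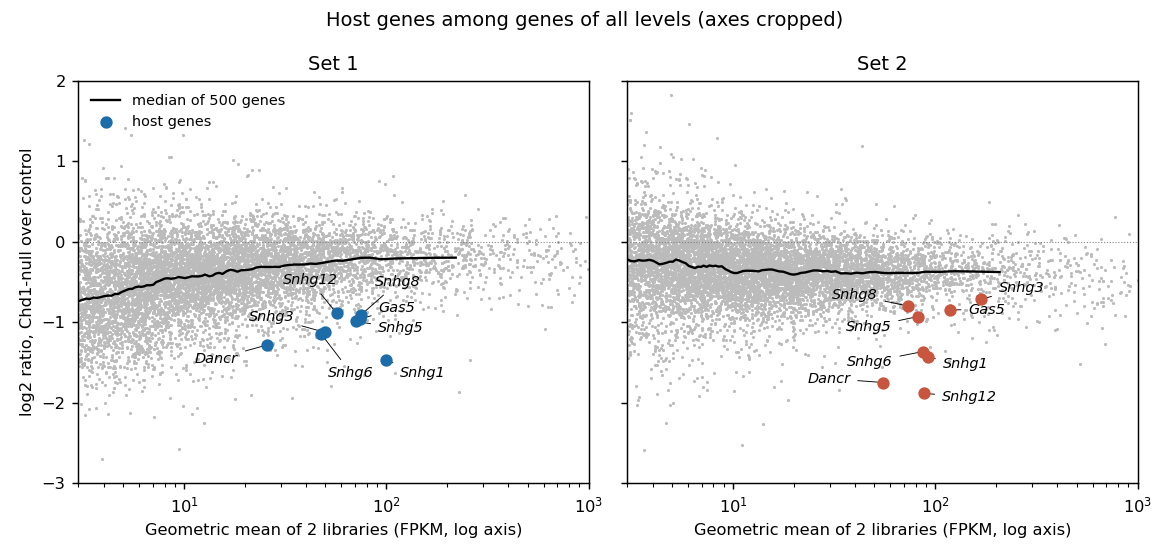
Log2 ratio of Chd1-null over control against level (geometric mean of the 2 libraries, FPKM, log axis) for tested genes (grey) and the 8 hosts (coloured), 1 panel per set, with a running median over 500 genes (black). The distances of the hosts from the median of similar genes run from -1.26 to -0.66 in set 1, and in set 2 from -1.502 to -0.35. The hosts' ratios were known when they were chosen.

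The hosts are also short genes, with RefSeq spans of 785 (Snhg8) to 3939 bases (Gas5) and a median of 1970, against 23196 over the tested genes with a span. Another 203 tested genes were no longer than Gas5 and at least as high in mean as Dancr (47.1 FPKM). On the log2 scale their medians were -0.24 (set 1) and -0.48 (set 2). Among these, 0.985% lay below Snhg1 in each set, and 1.48% in set 1 and 0% in set 2 lay below Dancr. In set 2, 23.6% lay below Snhg3, 18.2% below Snhg8 and 13.8% below Gas5, so that 5 of 8 hosts were in the lowest 10% in both sets. Set against the 500 genes nearest in span alone, whatever their level, the number was 3 (Snhg1, Snhg6 and Dancr). Both comparisons by length were chosen after the data were seen. For neither was the share of the compared genes in the lowest 10% in both sets counted, so nothing is read from these numbers of hosts.

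Genes next to the hosts were compared because some lie close to them or overlap them. Of the 16 nearest protein-coding neighbours in RefSeq, 9 were tested. In limma, fitted to all tested genes with the set as a block, 2 of the 9 fell (background 9.8% of tested genes lower, 0.0682% higher) and 0 rose, with 0 higher at an unadjusted p under 0.05. Syncrip, an RNA-binding protein gene 38460 bases from Snhg5, had 83.4 and 49.7 FPKM in set 1 and 66.2 and 39.2 in set 2 (log2 change -0.75, SE 0.18, limma adjusted p = 0.0020). Rcc1, the nuclear exchange factor of the GTPase Ran, had 110.8 and 68.2 FPKM in set 1 and 87.0 and 51.0 in set 2 (log2 change -0.73, SE 0.17, limma adjusted p = 0.0019). Rcc1 lies 6182 bases from Snhg3, and its ratio in set 2 was slightly below that of Snhg3, the only one of 9 pairs in which the host was not the lower in both sets. The hosts were chosen by these ratios, so a host below its neighbour is in part built in. Nothing is read from the count of pairs or from the differences below.

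Slc3a2 and Trnau1ap, the neighbours with the smallest gaps among those tested without overlap, had log2 ratios above those of their hosts in both sets. Slc3a2, which encodes an amino acid transporter subunit, lies 117 bases from Snhg1 and stood at 67.5 and 47.4 FPKM in set 1 and at 60.6 and 44.3 in set 2 (log2 change -0.48, limma adjusted p = 0.0626). The log2 ratio of Snhg1 minus that of Slc3a2 was -0.96 in set 1 and -0.98 in set 2. Trnau1ap, a selenocysteine tRNA-associated protein gene 738 bases from Snhg12, had 35.1 and 47.6 FPKM in set 1 and 52.2 and 38.6 in set 2 (log2 ratios 0.44 and -0.44, limma adjusted p = 0.996). Snhg12 minus Trnau1ap was -1.33 and -1.45. Zbtb37, a zinc finger gene, overlaps Gas5 in RefSeq and was between 0.760 and 1.76 FPKM in all 4 libraries. Whether the counting kept strands apart is not given, so reads of overlapping genes may be shared.

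**Figure D3:**
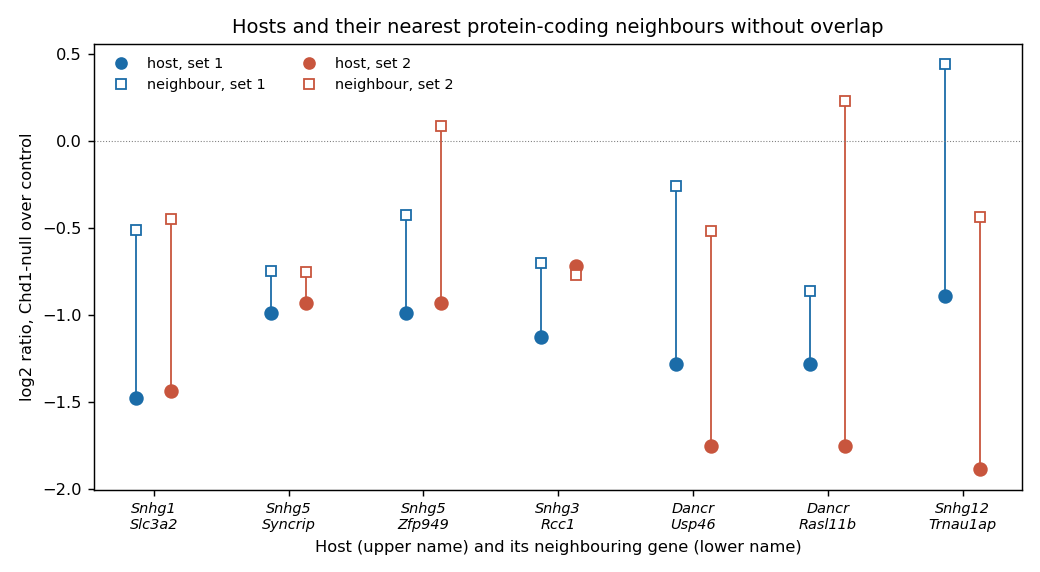
Log2 ratio of Chd1-null over control for each host (filled circles) and its tested protein-coding neighbours that do not overlap it (open squares), joined by a line, with set 1 in blue and set 2 in red. In 6 of 7 such pairs the host is the lower in both sets, and the exception is Snhg3 with Rcc1 in set 2. The hosts' ratios were known when they were chosen, so this count is description only.

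Other genes of the snoRNA pathway were taken from lists of known hosts, partners and decay factors, made with earlier results of these data known. The genes named from them were picked for large mean changes of the same sign in both sets. Each count below is to be read against all 10261 tested genes, of which 9.8% fell in limma and 2968 were lower at an unadjusted p under 0.05. Of the further noncoding hosts on the list, 2 were tested and both fell in limma. Neither call held with each library scaled to its total, and relative to the median shift of each set the adjusted p was 0.48 for Snhg7 and 0.91 for 1500012F01Rik. Snhg7 had 27.1 and 16.05 FPKM in set 1 and 77.9 and 33.5 in set 2 (log2 change -0.98, SE 0.19, adjusted p = 8.6e-05). The locus 1500012F01Rik, the clone name of Zfas1, had 203.2 and 113.5 FPKM in set 1 and 212.7 and 127.7 in set 2 (log2 change -0.79, SE 0.17, adjusted p = 0.00041).

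Protein-coding genes that carry snoRNAs in their introns had medians nearer 0 than the 8 noncoding hosts. Because those hosts were chosen with their ratios known, this contrast is in part built in, and nothing is read from it. Of 49 tested, 15 fell and 0 rose in limma (31 lower and 0 higher at an unadjusted p under 0.05), and 45 were below control in both sets. With libraries scaled to their totals 1 fell. Their median was -0.32 on the log2 scale in set 1, above the -0.46 of all genes, and -0.45 in set 2, below the -0.33 of all genes. By comparison, 18.6% of the 1438 genes with a mean at or above that of Dancr fell. The ribosomal protein gene Rpl10 had a log2 change of -1.05 (SE 0.18, limma adjusted p = 3.2e-06), and its reads can be shared with processed pseudogenes. Prrc2a fell by 0.93 (SE 0.22, limma adjusted p = 0.0018), with log2 ratios of -1.48 and -0.39, a gap that this SE does not measure. Taf1d, a subunit of an RNA polymerase I initiation factor whose introns hold several snoRNAs, fell by 0.84 (SE 0.17, limma adjusted p = 0.00014), with ratios of 0.626 and 0.5004 of control.

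Genes for the proteins that bind and mature snoRNAs were called about as often as all genes. Of 21 tested, 2 (9.52%) fell and 0 rose in limma, against 9.8% of all tested genes that fell (8 lower and 0 higher at an unadjusted p under 0.05), with medians of -0.18 (set 1) and -0.34 (set 2). Dkc1, the pseudouridine synthase of H/ACA particles and itself a snoRNA host, fell by 0.63 (SE 0.17, limma adjusted p = 0.0102). Nolc1, a nucleolar chaperone of these particles, fell by 0.58 (SE 0.19, limma adjusted p = 0.0338). Tgs1, the cap hypermethylase, had a log2 change of -0.77 that did not pass (limma adjusted p = 0.13), with log2 ratios of -1.29 and -0.24.

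Factors of nonsense-mediated decay and the exon junction complex, which act on spliced host RNA, were called at a rate that a single gene separates from that of all genes. Of 18 tested, 1 (5.56%) fell and 0 rose in limma, against 9.8% of all tested genes that fell (3 lower and 0 higher at an unadjusted p under 0.05), with medians of -0.55 and -0.31. With libraries scaled to their totals 0 fell, in this list as in that of the snoRNA-binding proteins. The exonuclease Xrn1 had log2 ratios of -1.71 and -0.53 and did not pass (limma adjusted p = 0.0726), and Smg9 had -0.82 and -0.40 (limma adjusted p = 0.20).

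Transcripts of the TOP class other than ribosomal proteins included a few large changes. Of 14 tested, 4 (28.6%) fell and 0 rose in limma, against 9.8% of all tested genes that fell (10 lower and 0 higher at an unadjusted p under 0.05), with medians of -0.37 and -0.52. With libraries scaled to their totals 1 fell. For abundant transcripts the share was higher, as 18.6% of the 1438 genes with a mean at or above that of Dancr fell in limma. Pabpc1, which binds poly(A) tails in the cytoplasm, fell by 1.41 (SE 0.17, limma adjusted p = 3.4e-13), the elongation factor Eef1a1 by 0.90 (SE 0.26, limma adjusted p = 0.0128) and Tpt1, a snoRNA host, by 0.70 (SE 0.18, limma adjusted p = 0.0041). Among 13 other long or structural noncoding RNAs, 2 (15.4%) fell and 0 rose in limma, 1 with libraries scaled to their totals (3 lower and 0 higher at an unadjusted p under 0.05), with medians of -0.49 and -0.33. The telomerase RNA Terc had a log2 change of -1.41 (SE 0.17, limma adjusted p = 2.5e-13) and the RNase P RNA Rpph1 one of -0.88 (SE 0.26, limma adjusted p = 0.0172). Pabpc1 and Terc also fell relative to the median shift of each set (limma adjusted p = 0.0209 and 0.0072), where 0.214% of tested genes fell and 0.146% rose. The log2 ratios (set 1, then set 2) were -1.86 and -0.95 for Pabpc1, and -1.63 and -1.20 for Terc. The SEs of these genes do not measure such gaps between sets. The nuclear RNA Neat1 had log2 ratios of -0.89 and -0.17 and did not pass (limma adjusted p = 0.34).

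**Figure D4:**
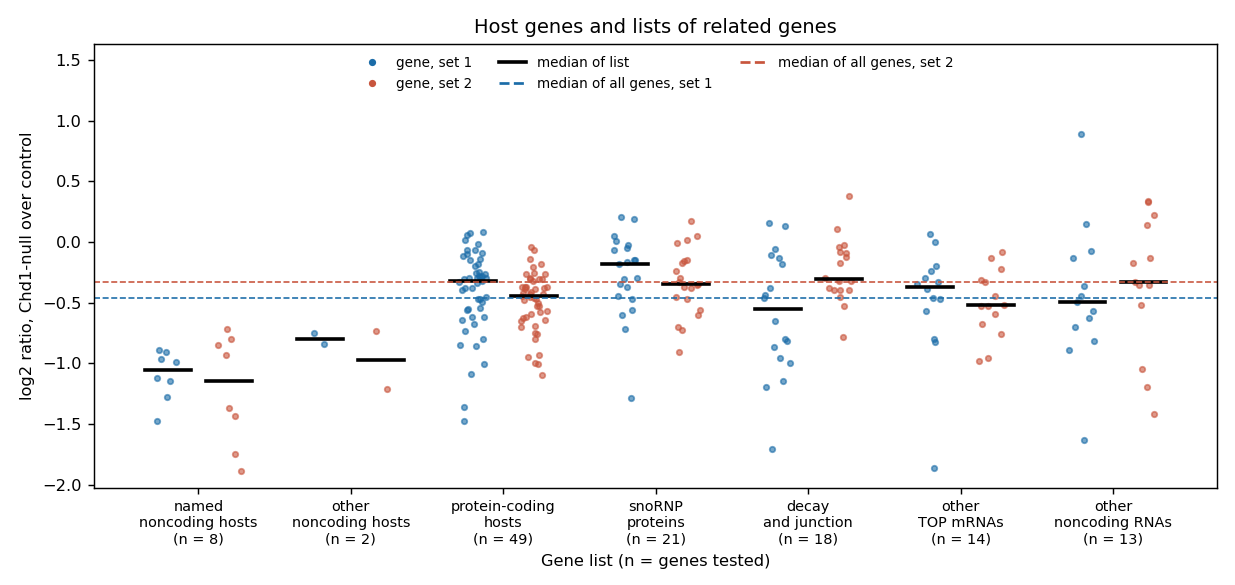
Log2 ratio of Chd1-null over control for the 8 hosts and for the tested genes of 6 related lists, by set, with each list's median (black bar) and the median of all tested genes (dashed lines). The hosts, whose ratios were known when they were chosen, have medians of -1.06 and -1.15, followed by the 2 other noncoding hosts with -0.80 and -0.97, while the medians of the remaining lists run from -0.55 to -0.18.

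These limma calls rest on a spread shared by genes of similar level, because 2 pairs leave 1 residual degree of freedom. In the main fits the prior degrees of freedom were infinite, so a gene's own gap between sets had no weight. The SEs and p-values therefore do not measure how well the 2 sets agree for a gene. With the same prior variance for all genes limma called 0 genes in either direction (1718 unadjusted), and with the block dropped it also called 0 (1043 unadjusted).

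The genes whose ratios in the 2 sets lay closest to the hosts' medians, among those with a mean of at least 10 FPKM, were Utf1, Tfap2c, Ralb, Mreg and Coro1b. Distance was measured on the log2 ratios of the 2 sets, so it compares 2 values per gene, and it was 0.0340 for Utf1 and 0.116 for Coro1b. Utf1, a chromatin-associated factor of undifferentiated embryonic cells, stood at 71.5 and 33.6 FPKM in set 1 and at 83.1 and 37.2 in set 2. Tfap2c, a transcription factor of trophoblast and germ cells, stood at 31.2 and 15.1 FPKM in set 1 and at 8.04 and 3.49 in set 2. Ralb encodes a small GTPase and Coro1b an actin-binding protein.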

How the data were processed

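The authors deposited 1 table per set with a value per locus for the control and the Chd1-null library and their ratio. The tools in the submitters' processing notes are Cufflinks 2.2.0, Cuffdiff, TopHat and TopHat2 2.0.10, and the build is mm9. The role of each is not given in the sources used here. No header names a unit, and the deposited values were taken as FPKM from these tools and from values that are not whole. The deposited ratio equalled the quotient of the columns to within 4.97e-06. Depth is unknown, so no counting interval is given, and the number of libraries limits the precision. Rows without a symbol (3939 and 3866), merging genes (147 and 144) or with a repeated symbol were left out.

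Log2 ratios are log2(FPKM + 0.1) of Chd1-null minus control within a set. The added 0.1 makes changes of low genes look smaller. Fold limits used the plain ratio of deposited values. Related genes were tested with limma 3.58.1 in R 4.3.3 (variance trend on level, set as block, two-sided, Benjamini-Hochberg at 0.05). Libraries were paired by set: each set is a separate table, and 2 lines are named in the protocol. Within a set, deviations from the group means correlated (r = 0.483). Members, lists and tests were chosen with earlier results of these data known, and the TATA letters after the promoters were read. Besides the 8 hosts, named genes are, per list, up to 3 with the largest mean change of the same sign in both sets, the nearest neighbours, Chd1 and the 5 genes most like the hosts (leaving out predicted genes, clone names and small RNAs); of the neighbours, those with a value of note are described. A few named genes are not reported here. Sequences came from RefSeq (GRCm38.p6) and GENCODE M21, matched by symbol. The files give no coordinates, so those printed are of GRCm38 and not of mm9.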

Additional observations from a re-analysis of the deposited data

How the results depend on the processing

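Each of the 8 hosts kept a negative log2 change under all 5 alternatives tried for it (40 of 40 values, -1.88 to -0.46). That direction was known when the hosts were chosen, and 72.4% of tested genes were lower in both sets in the deposited values. The share of tested genes that stayed negative under these alternatives was not counted, so nothing is read from this number. The hosts' median of -1.11 became -0.71 both with each library scaled to its total and with the median of all genes subtracted, as both take out a shift common to all genes; leaving out either set gave -1.15 and -1.06. The median share of similar genes below a host, 2% in the main comparison, was 2.88% with 200 and 2.525% with 1000 neighbours, 3% by control level, 4.06% among genes as short and as high, and 10.25% by span alone (leaving out a set, 1.8% and 2.1%). The number of hosts in the lowest 10% in both sets was 7, where 1.58% of tested genes lay. It was 5 among genes as short and as high and 3 by span alone, with no share counted for these. With set 1 left out, 7 hosts were in the lowest 10% of set 2. With set 2 left out, 8 were in that of set 1 (10.3% of tested genes in each set). These counts use the ratios that chose the hosts.

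In limma, 1006 genes fell and 7 rose; with a mean of at least 5 FPKM 225 and 2, scaled to totals 37 and 50, and with a pseudocount of 1 the higher count was 4. Dropping the replicate block, or giving all genes a common prior variance, left 0 genes in either direction (lowest adjusted p = 0.461 and 0.288; 1043 and 1718 unadjusted). Relative to the median 22 fell and 15 rose; with at least 5 FPKM 3 and 2, and 0 without the block (154 unadjusted) or with the common variance (614). Of the genes in the related lists 23 fell, against 13 at 5 FPKM, 3 scaled to totals, and 0 without the block or with the common variance. Of the neighbours 2 fell, and 0 in those last 3 settings. The cause of these losses was not tested. Leaving out a set leaves no residual degree of freedom and so no test.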
